A study of Mus musculus with 3 samples.

Results

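The TNF superfamily ligands were followed in 3 RNA-Seq libraries of myeloid cells from mice with experimental autoimmune encephalomyelitis (EAE), a model of multiple sclerosis. The 10 genes were taken by name: Tnf, Tnfsf4, Tnfsf8, Tnfsf9, Tnfsf10, Tnfsf12, Tnfsf13, Tnfsf13b, Tnfsf14 and Fasl. They are 10 of the 22238 genes quantified in all 3 libraries.

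Female C57BL/6J mice, 10 to 12 weeks old and labelled as wild type (WT) in all 3 samples, were immunized with a myelin oligodendrocyte glycoprotein peptide in complete Freund's adjuvant and given 250 ng of pertussis toxin after 2 and 24 hours, so that every population came from immunized animals. Cells were sorted on days 14 to 15, at the height of disease. All were gated as positive for CD45 and CD11b and negative for Ly6G. Bone marrow monocytes were Ly6Chi and CD11c-, and were pooled from 13 mice of 2 experiments. Both spinal cord populations were CD64+, the monocytes being Ly6Chi and the monocyte-derived antigen-presenting cells (APCs) Ly6Clow/-, and each was pooled from 18 mice of 3 experiments. One label of the APC sample names the bone marrow as its source, whereas its title and tissue label name the spinal cord, which was used here. There was 1 library per population, so no difference below has a replicate check or a p-value. Every interval covers counting error only and leaves out the spread between animals and preparations. PCR copies of a fragment are not independent molecules, so even the counting error may be understated. Bone marrow was flushed and enriched for monocytes, whereas spinal cord was digested with collagenase and passed over a density gradient, so that tissue and preparation cannot be told apart.

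Estimated reads came to 33280643 in the bone marrow library, 27283795 in the cord monocyte library and 28209589 in the APC library. In what follows, values in threes run from the bone marrow library to the cord monocyte library to the APC library. TPM, the relative abundance of transcripts after division by their length, was rescaled to the same sum over the common genes, and its 95% Wilson interval comes from the reads of the gene. The log2 ratio of 2 libraries was taken from reads scaled for depth, and can differ from the ratio of the TPM printed beside it. For Tnf in spinal cord over bone marrow monocytes it was 5.38, and 5.06 from TPM with 0.1 added. Each log2 ratio has a 98% interval, which does not cover the choice of scaling. A gene was called higher or lower where that whole interval lay beyond a 2-fold change and TPM was above 3 in at least 1 of the 2 libraries, and a gene that met the TPM criterion is termed active. All 9 monocyte genes listed, Ptprc, Itgam, Ly6c2, Ccr2, Plac8, Fcgr1, Cd44, Nr4a1 and Csf1r, were above 3 TPM in each library. Genes of other cell types were also present. Summed TPM of 10 T cell genes was 0.820, 69.7 and 105. Summed TPM of 6 microglia genes was 12.8, 86.7 and 226. In bulk RNA, fewer cells of a type and less RNA per cell cannot be told apart.

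TNF superfamily ligands are mostly trimeric type II membrane proteins that signal to neighbouring cells through TNF receptor superfamily members. Several of them are cut from the cell surface or from the secretory pathway and then act as soluble cytokines. Tnf encodes the inflammatory cytokine TNF, which myeloid cells make in EAE lesions. Tnfsf13 (APRIL) and Tnfsf13b (BAFF) are survival factors of B cells and plasma cells, Tnfsf9 (4-1BB ligand), Tnfsf4 (OX40 ligand), Tnfsf8 (CD30 ligand) and Tnfsf14 (LIGHT) costimulate lymphocytes, and Fasl and Tnfsf10 (TRAIL) trigger death receptors. Tnfsf12 (TWEAK) acts through the receptor Fn14.

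The sequence just before the transcription start is shown for Tnf and Tnfsf13b, which were called higher in the spinal cord, and for Tnfsf14, which lay just short of the call. These 3 windows of 250 bases were taken from the RefSeq promoter set on GRCm38.p6, in which 7 of the 10 genes had an entry (Tnfsf4, Tnfsf9 and Tnfsf12 did not), and none of the 3 overlaps a gene in GENCODE M21. The Tnf window is chr17:35202008-35202257 on the minus strand, the Tnfsf13b window chr8:10006217-10006466 on the plus strand, and the Tnfsf14 window chr17:57194182-57194431 on the minus strand. Capitals mark matches, on either strand, to the letters of NF-kB (GGG and CC with 5 bases of any kind between them), AP-1 (TGANTCA), PU.1 (GAGGAA), an interferon-stimulated response element (ISRE, GAAA repeated with 2 bases of any kind between) and a TATA box (TATAAA).
Tnf: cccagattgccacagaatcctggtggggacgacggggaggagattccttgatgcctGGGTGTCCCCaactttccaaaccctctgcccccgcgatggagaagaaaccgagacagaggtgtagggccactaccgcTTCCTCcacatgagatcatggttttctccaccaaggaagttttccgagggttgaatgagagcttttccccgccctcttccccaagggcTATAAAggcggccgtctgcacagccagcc
Tnfsf13b: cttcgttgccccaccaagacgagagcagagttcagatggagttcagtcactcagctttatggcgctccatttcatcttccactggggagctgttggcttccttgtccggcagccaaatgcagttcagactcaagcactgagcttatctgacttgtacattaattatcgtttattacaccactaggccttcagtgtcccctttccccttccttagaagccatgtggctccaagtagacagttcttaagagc
Tnfsf14: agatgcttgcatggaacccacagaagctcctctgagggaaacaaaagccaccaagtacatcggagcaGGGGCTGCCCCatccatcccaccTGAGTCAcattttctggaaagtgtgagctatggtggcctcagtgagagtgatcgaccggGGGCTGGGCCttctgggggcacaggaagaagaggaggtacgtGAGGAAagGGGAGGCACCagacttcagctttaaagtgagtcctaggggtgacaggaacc

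The Tnf window holds the TATA box letters 29 to 24 bases before the start, an NF-kB match 194 to 185 bases before it and a PU.1 match, on the other strand, 117 to 112 bases before it. The Tnfsf14 window holds 4 NF-kB matches, the first 2 of which overlap, with 1 AP-1 and 1 PU.1 match, while none of the 5 sets of letters is in the Tnfsf13b window shown. A later start of Tnfsf13b, whose window overlaps its own annotated exon and is not shown, has TGAGTCA and the ISRE letters GAAAGTGAAA before it. Among all 32851 promoter windows of this length, 45.8% held the NF-kB letters, 23.3% those of PU.1, 12.4% the TATA box, 6.75% those of AP-1 and 2.98% those of the ISRE. Over the 8 windows of the ligands the counts were 4, 2, 1, 3 and 1. The NF-kB letters were in windows of Fasl, Tnf, Tnfsf13 and Tnfsf14, and those of AP-1 in windows of Tnfsf13, Tnfsf13b and Tnfsf14. Tnfsf13, which was not called higher in the spinal cord, thus held both, in a window that overlaps its own exon. A match is a string of letters and was not examined for binding.

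Together the ligands were more abundant in the spinal cord than in the bone marrow, and a different gene led. Their summed TPM was 156, 561 and 501. Tnfsf13 made up 60.4% of that sum in the bone marrow library, against 10.1% in the cord monocyte library and 12.2% in the APC library. Tnf made up 7.34%, 68.6% and 56.2%. Of the 10 ligands, 5 were above 3 TPM in bone marrow monocytes and 6 in each spinal cord population.

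In bone marrow monocytes the order by TPM was Tnfsf13, Tnfsf12, Tnfsf14, Tnf and Tnfsf13b, each separated from the next by its counting interval, and then Tnfsf9 and Tnfsf10, which were not. In spinal cord monocytes the order was Tnf, Tnfsf13, Tnfsf9, Tnfsf12, Tnfsf14, Tnfsf13b, Tnfsf10, Tnfsf8, Fasl and Tnfsf4. There the intervals of Tnfsf9 and Tnfsf12, of Tnfsf12 and Tnfsf14, and of Fasl and Tnfsf4 overlapped. In APCs it was Tnf, Tnfsf13, Tnfsf12, Tnfsf9, Tnfsf13b, Tnfsf14, Tnfsf10, Tnfsf8, Tnfsf4 and Fasl. Neighbours whose intervals overlapped in APCs were Tnfsf13 and Tnfsf12, Tnfsf13b and Tnfsf14, and the last 3 genes from each to the next.

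**Figure D1:**
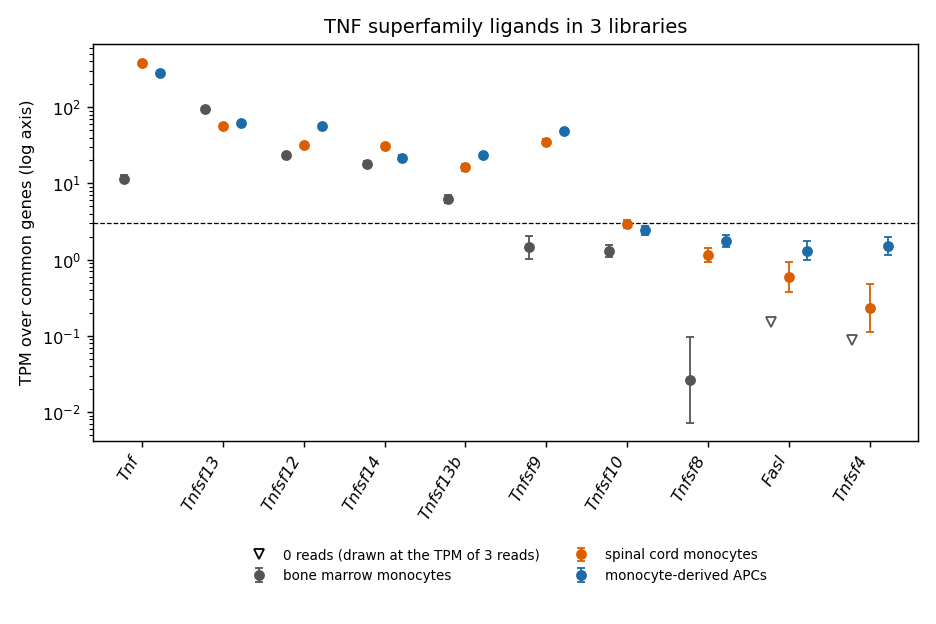
TPM over the common genes (log axis) of the 10 ligands in bone marrow monocytes (grey), spinal cord monocytes (orange) and monocyte-derived APCs (blue), with 95% Wilson intervals of 1 library each. Open triangles stand at the TPM of 3 reads where 0 reads were found, the dashed line is 3 TPM, and Tnf lies at 11.5 TPM in bone marrow against 385 and 281 TPM in the spinal cord populations.

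Between bone marrow and spinal cord monocytes, 3 of the 10 ligands (Tnf, Tnfsf9 and Tnfsf13b) were called higher and 0 were called lower. Over all 10072 active genes, 13.8% were called higher and 10.7% lower. Of the 10 ligands, 6 were active in this comparison. The median log2 ratio of the 10 was 2.70, or 1.57 with the 2 genes at 0 reads in bone marrow set to their lower bound. That of all active genes was -0.15, a median over an unlike set, since the 10 include ligands that were not active. Scaling to the library totals moved the median of all active genes by -0.18 and left Tnf and Tnfsf9 called and Tnfsf13b not.

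Tnf had 338 reads in the bone marrow library, 10109 in the cord monocyte library and 8136 in the APC library, corresponding to 11.5, 385 and 281 TPM. Bone marrow monocytes were low and both spinal cord populations were high. Tnf (ENSMUSG00000024401.14, chr17:35199381-35202007, minus strand) was higher in spinal cord monocytes than in bone marrow monocytes by a log2 ratio of 5.38 (98% interval 5.20 to 5.57), a 41.7-fold difference. Its TPM was above that of 68.2% of the common genes in the bone marrow library, 98.1% in the cord monocyte library and 97.8% in the APC library. Its log2 ratio was above that of 97.2% of active genes.

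The genes whose pair of log2 ratios lay nearest to that of Tnf, among 9952 named genes above 3 TPM in at least 1 library, were Tagln, Prdm1 and Phlda1, at Euclidean distances of 0.11, 0.12 and 0.14 on the log2 scale. Prdm1, which encodes the transcriptional repressor BLIMP-1, had 2.57, 84.8 and 69.1 TPM in the 3 libraries. Tagln, an actin-binding protein gene, was far lower, at 0.070, 3.22 and 2.50 TPM. Phlda1 had 3.60, 104 and 64.9 TPM. Only 3 libraries stand behind this likeness.

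Immediate-early genes, which are known to respond to inflammatory signals and also to the dissociation of tissue, also differed between these libraries. Of 7 such genes (Fos, Fosb, Jun, Junb, Egr1, Atf3 and Dusp1), a list added after the ligand values were seen, 6 were called higher in spinal cord monocytes than in bone marrow monocytes and 0 lower. Atf3 had the largest of these log2 ratios at 5.52 (98% interval 5.43 to 5.61), while Fos had 0.72 and was not called. In that comparison 13.8% of all active genes were called higher and 10.7% lower. In APCs set against spinal cord monocytes, 0 of the 7 were called higher and 1, Atf3, lower, at a log2 ratio of -1.06. The shares of all active genes there were 1.93% higher and 1.70% lower. The 7 genes summed to 2915 TPM in the bone marrow library, 8182 in the cord monocyte library and 6812 in the APC library, and all were above 3 TPM in each library. Their part in the Tnf difference was not tested.

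Tnfsf9, whose product costimulates T cells through 4-1BB, had 32, 695 and 1057 reads. These are 1.45, 35.4 and 48.7 TPM, so Tnfsf9 passed from the low to the middle range of the family. Tnfsf9 (ENSMUSG00000035678.8, chr17:57105325-57107757, plus strand) had a log2 ratio of spinal cord to bone marrow monocytes of 4.89 (98% interval 4.33 to 5.54). Only Tnf among the active ligands had a larger one.

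Tnfsf13b, the BAFF gene, had 217, 395 and 811 reads, or 6.26, 16.2 and 23.7 TPM. Each library was above the one before. The log2 ratio of Tnfsf13b (ENSMUSG00000031497.9, chr8:10006467-10039072, plus strand) between spinal cord and bone marrow monocytes was 1.34 (98% interval 1.06 to 1.63), so the lower bound lay just beyond a 2-fold change. With reads divided by effective length it was 1.61, since the effective length was estimated at 1622, 1257 and 1640 bases. Scaled by total reads it was 1.16 on the log2 scale and was not called.

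Tnfsf14, the LIGHT gene, had 611, 954 and 723 reads, with 31.3 TPM in cord monocytes, 21.7 TPM in APCs and 16.6 to 19.5 TPM (95% interval) in bone marrow. Spinal cord monocytes had the highest of the 3 values. Tnfsf14 (ENSMUSG00000005824.7, chr17:57189492-57194177, minus strand) had a log2 ratio of spinal cord to bone marrow monocytes of 1.12 (98% interval 0.95 to 1.30), which did not meet the call.

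Tnfsf12, the TWEAK gene, had 585, 688 and 1389 reads, or 23.3, 31.8 and 57.1 TPM. The APC library was the high one. Tnfsf12 (ENSMUSG00000097328.7, chr11:69686250-69695849, minus strand) had a log2 ratio of 0.72 (98% interval 0.53 to 0.91) between spinal cord and bone marrow monocytes and was not called there.

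Tnfsf13, the APRIL gene, had 2319, 1248 and 1485 reads, or 94.3, 56.8 and 61.3 TPM. It was the one active ligand whose log2 ratio between spinal cord and bone marrow monocytes was below 0, at -0.41 (98% interval -0.53 to -0.29). That ratio was -0.60 scaled by total reads and -0.72 from TPM with 1 added, both outside that interval. Tnfsf13 was not called. The median of all active genes was -0.15. The gene (ENSMUSG00000089669.7) lies at chr11:69682846-69685784 on the minus strand. Its nearest genes by the same 2 log2 ratios were Sap30bp, Acsf3 and Vps33a, at distances of 0.0080, 0.011 and 0.012. The likeness of Sap30bp holds for reads only, because its TPM was 67.9, 45.7 and 12.4.

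Tnfsf12 and Tnfsf13 are neighbours on chromosome 11, and the annotation has a read-through gene, Tnfsfm13, across both, so reads in the shared exons can be divided among the 3 in more than 1 way. Summed over the 3 genes there were 3604, 2491 and 3565 reads, or 135, 105 and 138 TPM. The log2 ratio of the summed reads was -0.05 (98% interval -0.14 to 0.04) between spinal cord and bone marrow monocytes and 0.36 (0.27 to 0.45) between APCs and spinal cord monocytes. Summed TPM in spinal cord monocytes was 0.777 of that in bone marrow monocytes, a fall that the ratio of -0.05 does not show. By scaled reads the whole locus varied less than Tnfsf12 alone. The share of Tnfsf12 in these reads was 16.2%, 27.6% and 39.0% in the 3 libraries, and that of Tnfsf13 was 64.3%, 50.1% and 41.7%. Tnfsfm13 took 19.4%, 22.3% and 19.4%. The APC library listed fewer genes than the monocyte libraries, a difference that the sources used here do not explain, and its effect on the division of reads among the 3 genes was not tested.

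The death receptor ligands and the remaining costimulators were low. Tnfsf10, the TRAIL gene (ENSMUSG00000039304.11, chr3:27317028-27342427, plus strand), had 131, 256 and 231 reads in the 3 libraries. This was 1.30, 2.96 and 2.41 TPM, below the level of 3 in each library. Its log2 ratio between spinal cord and bone marrow monocytes was 1.44 (98% interval 1.09 to 1.81), past a 2-fold change but not called for its low TPM.

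Tnfsf8 (ENSMUSG00000028362.2, chr4:63831308-63861347, minus strand) had 2, 79 and 130 reads, or 0.026, 1.15 and 1.75 TPM. Scaled for depth, the read ratio of spinal cord to bone marrow monocytes was 55.2 (exact 95% counting interval 14.8 to 463). Fasl (ENSMUSG00000000817.10, chr1:161780689-161788495, minus strand) had 0, 19 and 46 reads in the same order. It was at least 8.85-fold higher in spinal cord than in bone marrow monocytes, taking 3 reads as the most that a count of 0 allows in a library. That bound takes the 19 reads as exact, and the 98% interval of the log2 ratio of Fasl began lower, at 2.43. Tnfsf4 (ENSMUSG00000026700.4, chr1:161395409-161418410, plus strand) had 0, 7 and 50 reads. With the 7 reads taken as exact it was at least 3.26-fold higher in spinal cord than in bone marrow monocytes. Its 98% interval, which includes the counting error of both libraries, did not lie wholly beyond a 2-fold change. All of these 3 genes stayed under 3 TPM in each library, and none was called.

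**Figure D2:**
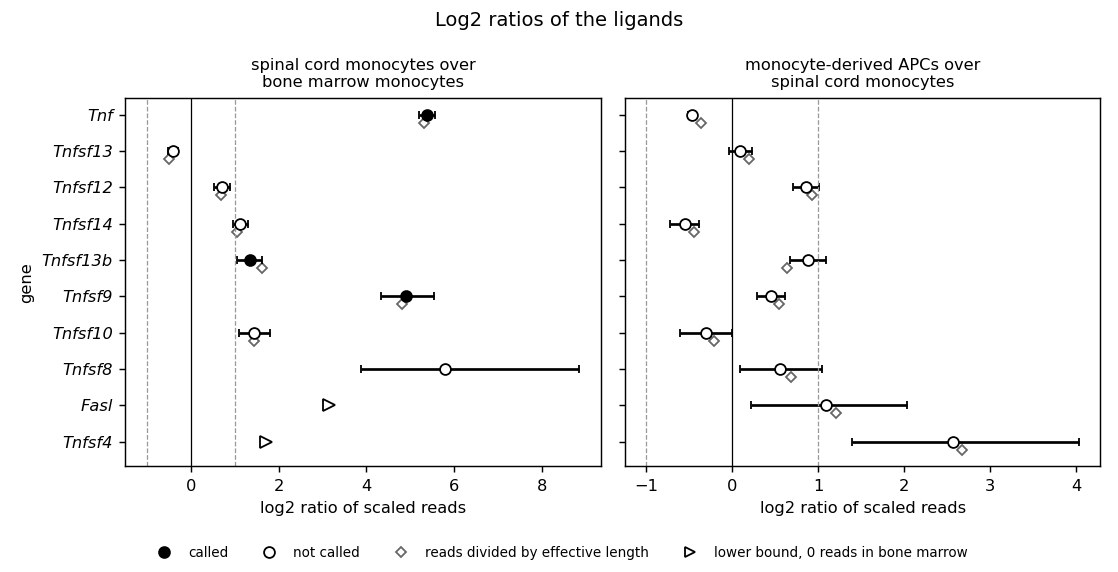
Log2 ratios of scaled reads for the 10 ligands between spinal cord and bone marrow monocytes (left) and between APCs and spinal cord monocytes (right), with 98% intervals (for Tnfsf8 on the left an exact 95% interval), filled where called. Diamonds are the same ratios with reads divided by effective length, and triangles are lower bounds that take the spinal cord reads as exact. Dashed lines mark a 2-fold change, and 3 ligands are called on the left and 0 on the right.

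Between APCs and spinal cord monocytes, 0 of the 10 ligands were called in either direction, and 6 were active. Over all 9734 active genes, 1.93% were called higher and 1.70% lower. The median log2 ratio of the 10 ligands, which include some that were not active, was 0.50, and that of all active genes -0.04. No p-value exists in this design, and the count rests on the call alone. With the TPM criterion left out, 1 ligand, Tnfsf4, was called higher and 0 lower, beside 1.73% and 1.31% of the 22238 genes.

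The ligands nonetheless did not lie at one ratio. Tnf had a log2 ratio of APCs to spinal cord monocytes of -0.47 (98% interval -0.52 to -0.42), and Tnfsf14 one of -0.56 (-0.72 to -0.39). Tnfsf13b stood at 0.88 (0.68 to 1.09) and Tnfsf12 at 0.86 (0.70 to 1.01). These were above the ratios of 95.8% and 95.7% of active genes, whereas Tnfsf14 was above 11.0% and Tnf above 14.7%. Tnfsf9 had 0.45 (0.28 to 0.61) and Tnfsf13 had 0.09 (-0.03 to 0.22). The interval of Tnfsf13 alone among the active ligands held 0.

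With reads divided by effective length, which was estimated separately in each library, the log2 ratio of APCs to spinal cord monocytes was -0.37 for Tnf, 0.63 for Tnfsf13b, 0.93 for Tnfsf12 and 0.54 for Tnfsf9. No ligand changed sign. Among the low ligands the log2 ratio from reads was -0.30 for Tnfsf10, 0.56 (98% interval 0.09 to 1.04) for Tnfsf8, 1.09 (0.22 to 2.04) for Fasl and 2.57 (1.39 to 4.03) for Tnfsf4. For Tnfsf4 this was a step from 7 to 50 reads.

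**Figure D3:**
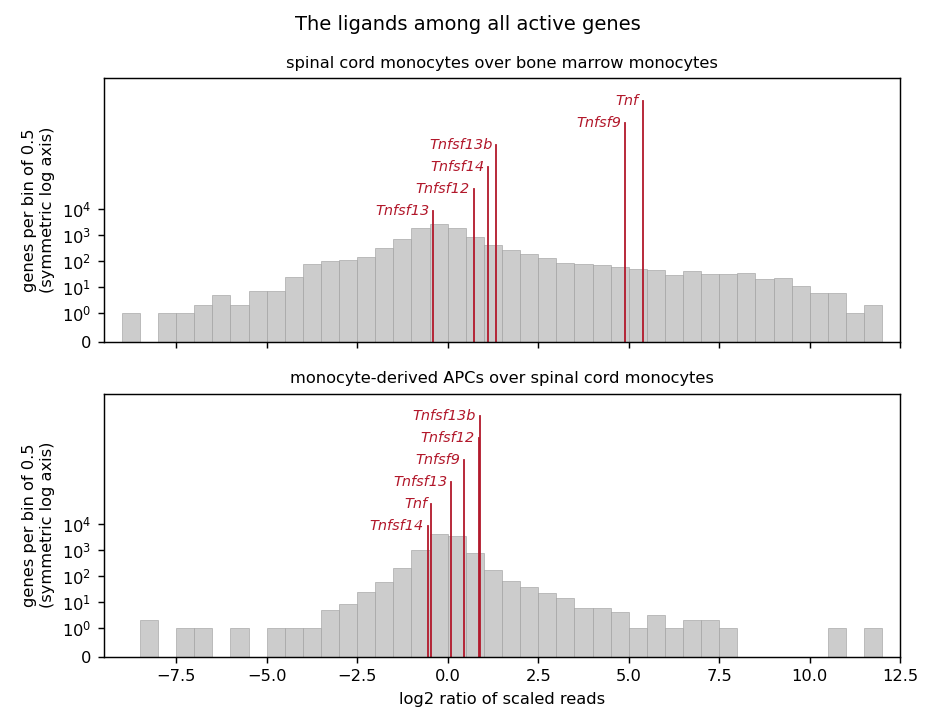
Number of active genes per bin of 0.5 in log2 ratio (symmetric log axis), with red lines, whose height carries no value, at the ligands that were active in each comparison. Between spinal cord and bone marrow monocytes (top) Tnf and Tnfsf9 lie far to the right at 5.38 and 4.89, and between APCs and spinal cord monocytes (bottom) the 6 lie between -0.56 and 0.88.

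APCs were also set against bone marrow monocytes, a comparison that shares its libraries with both others. Here 4 of the 10 ligands (Tnf, Tnfsf9, Tnfsf12 and Tnfsf13b) were called higher and 0 lower, with 14.0% of 10190 active genes called higher and 11.8% lower. The log2 ratio was 4.91 for Tnf, 5.34 for Tnfsf9 and 2.22 for Tnfsf13b. Tnfsf12 was at 1.57 (98% interval 1.41 to 1.74), whereas the sum of its locus with Tnfsf13 and Tnfsfm13 was at 0.31 (0.23 to 0.39), short of the call. Tnfsf14 had 0.57 and Tnfsf13 -0.32, and neither was called. With their APC reads taken as exact, Tnfsf4 was at least 20.9-fold and Fasl at least 19.2-fold higher in APCs. The read ratio of Tnfsf8 was 81.4 (exact 95% counting interval 22.1 to 680), and all of these were under 3 TPM.

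The 8 other ligands of the superfamily were low in these cells. Ltb, a subunit of lymphotoxin, had 29, 115 and 157 reads in the 3 libraries (1.51, 6.69 and 8.27 TPM), and was called higher in spinal cord than in bone marrow monocytes with a log2 ratio of 2.44. Tnfsf11, the RANK ligand gene, had 0, 117 and 234 reads and was called, at least 54.5-fold higher. Cd40lg had 0, 49 and 99 reads and Lta had 0, 33 and 94. Tnfsf15 had 0, 18 and 45 reads, while Cd70, Tnfsf18 and Eda had at most 5 in any library. In all, 2 of these 8 were called higher in spinal cord than in bone marrow monocytes, 0 between APCs and spinal cord monocytes, and 4 higher in APCs than in bone marrow monocytes, with 0 called lower. In the same order, 13.8%, 1.93% and 14.0% of all active genes were called higher and 10.7%, 1.70% and 11.8% lower. Their median log2 ratio between spinal cord and bone marrow monocytes was 3.84, beside -0.15 for all active genes. With Tnfsf11, Cd40lg, Lta and Tnfsf15, at 0 reads in bone marrow, set to their bound it was 2.76. Only 2 of the 8 were active in that comparison, so these medians cover unlike sets. Cd70, Tnfsf18 and Eda, at or under 3 reads in both libraries, kept ratios that depend on the 1 read added.

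Several of these low ligands are made by activated T cells, and T cell genes were present beside them. Of the 10 T cell genes, 8 were called higher in spinal cord than in bone marrow monocytes and 0 were called between APCs and spinal cord monocytes. In these comparisons 13.8% and 1.93% of all active genes were called higher. Cd3g, Trac, Cd4 and Zap70 were at 0 reads in bone marrow monocytes. Trac had 0, 190 and 346 reads, and Cd3e had 1, 138 and 285. The log2 ratio of APCs to spinal cord monocytes ran from 0.14 for Zap70 to 0.95 for Cd4 within the T cell genes. For the ligands it was 0.85 for Cd40lg, 0.84 for Tnfsf11, 0.29 for Ltb, 1.33 for Lta, 1.13 for Tnfsf15, 0.56 for Tnfsf8, 1.09 for Fasl and 2.57 for Tnfsf4. The 5 natural killer cell genes summed to 0.067, 3.81 and 8.01 TPM, with Ncr1 at 0 reads in both monocyte libraries. The spinal cord cells had been sorted as positive for CD11b and CD64, and how many T cells or natural killer cells remained is not known here. The part of such cells in Tnfsf8, Fasl, Tnfsf4 and the other low ligands was not tested.

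**Figure D4:**
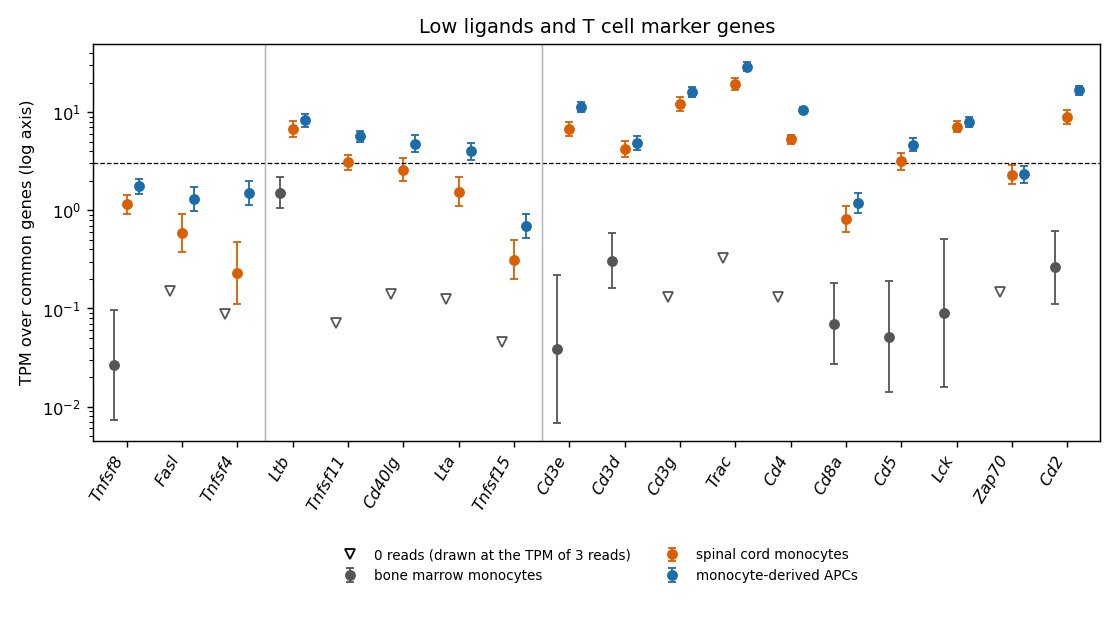
TPM over the common genes (log axis) of the 3 lowest ligands (left), 5 other ligands of the superfamily (middle) and 10 T cell genes (right) in the 3 libraries, with 95% Wilson intervals. Most are absent or near 0 in bone marrow monocytes, drawn as open triangles at the TPM of 3 reads where 0 reads were found, and the T cell genes sum to 69.7 TPM in the cord monocyte library and 105 TPM in that of APCs.

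Genes of further cell types were also read. Of the 6 microglia genes, 5 were called higher in spinal cord than in bone marrow monocytes, where Sall1 and Slc2a5 had 0 reads. Of all active genes, 13.8% were called higher and 10.7% lower there. All 6 microglia genes were called higher in APCs when set against spinal cord monocytes, beside 1.93% of all active genes. Sall1 went from 300 to 1415 reads, beside the log2 ratios of 0.86 and 0.88 of Tnfsf12 and Tnfsf13b. The 6 neutrophil genes summed to 7429 TPM in the bone marrow library, 1169 in the cord monocyte library and 1142 in the APC library, beside the TPM of Tnfsf13 of 94.3, 56.8 and 61.3. That sum was led by S100a8 and S100a9, at 4471 and 2244 TPM in bone marrow monocytes, both of which monocytes also make. These and Mmp8 were the 3 neutrophil genes called lower in spinal cord than in bone marrow monocytes, while Retnlg (13, 107 and 423 reads) and Cxcr2 (153, 488 and 394 reads) were called higher. Ly6g, the neutrophil marker of the sort, had 38, 22 and 24 reads. Summed TPM in the same order was 8.69, 3.52 and 3.79 for 5 B cell genes, 40.8, 21.3 and 28.3 for 6 conventional dendritic cell genes and 15.7, 36.8 and 51.1 for 6 macrophage genes of the central nervous system borders. Among the dendritic cell genes Flt3 was called lower in spinal cord than in bone marrow monocytes, at 37.8 and 3.65 TPM, while Batf3 and Clec9a were called higher and the median log2 ratio was 3.19. Summed TPM was 10.1, 30.4 and 18.2 for 4 endothelial genes and 75.2, 49.0 and 44.3 for 6 neural genes, of which 2 were called higher and 1, Mbp, lower between the monocytes. The part of these cells in the ligand values was not tested.

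Of 16 receptors of the ligands, 4 were called higher and 1 lower in spinal cord than in bone marrow monocytes. Their median log2 ratio was 1.49, or 1.36 with Tnfrsf9 and Tnfrsf13c, at 0 reads in bone marrow, at their bound. The shares of all active genes were 13.8% higher and 10.7% lower. The TNF receptors themselves were abundant throughout. Tnfrsf1a had 194, 229 and 177 TPM in the 3 libraries, and Tnfrsf1b had 230, 243 and 182. Neither was called, with log2 ratios of 0.54 and 0.39 between spinal cord and bone marrow monocytes and of -0.48 and -0.42 between APCs and spinal cord monocytes.

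Tnfrsf12a (Fn14), the receptor of TWEAK, had 4.42, 104 and 47.3 TPM and a log2 ratio of 4.77 (98% interval 4.34 to 5.24) between spinal cord and bone marrow monocytes. Its ratio between APCs and spinal cord monocytes, -1.09 (-1.26 to -0.92), was not called. Tnfrsf9 (4-1BB), the receptor of Tnfsf9, had 0, 709 and 2517 reads. It was at least 330-fold higher in spinal cord than in bone marrow monocytes, and was called again between APCs and spinal cord monocytes at a log2 ratio of 1.67 (1.53 to 1.81). Both Tnfsf9 and its receptor were thus nearly absent in the bone marrow library and present in both others. The T cell genes were likewise nearly absent in bone marrow and present in both others, and the part of T cells in Tnfrsf9 was not tested.

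Tnfrsf13b (TACI), which binds APRIL and BAFF, was called lower in spinal cord than in bone marrow monocytes, with 112, 39.1 and 20.9 TPM and a log2 ratio of -1.23 (98% interval -1.35 to -1.12). The 2 other receptors of these ligands were nearly unread, Tnfrsf13c (BAFF receptor) with 0, 6 and 11 reads and Tnfrsf17 (BCMA) with 0, 1 and 1. Tnfrsf4 (OX40) had 2, 83 and 176 reads and a read ratio of 58.0 (exact 95% counting interval 15.5 to 487) between spinal cord and bone marrow monocytes. The part of T cells in Tnfrsf4 was not tested either. Fas had 32.6, 51.0 and 21.2 TPM and was not called, with a log2 ratio of APCs to spinal cord monocytes of -1.05 (-1.25 to -0.86). The LIGHT receptors Tnfrsf14 and Ltbr were not called, at 116, 104 and 71.2 TPM and at 86.8, 71.0 and 55.0 TPM.

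Of the decoy receptors of TRAIL, Tnfrsf22 and Tnfrsf23 were called. Tnfrsf23 had 4.51, 16.9 and 19.6 TPM and was higher in spinal cord than in bone marrow monocytes by a log2 ratio of 2.05. Tnfrsf22 had 0.588, 1.31 and 6.16 TPM and had a log2 ratio of APCs to spinal cord monocytes of 1.49. With Tnfrsf9 it made up the 2 receptors called between those libraries, in which 0 were called lower, beside 1.93% of all active genes higher and 1.70% lower. Between APCs and bone marrow monocytes 5 receptors were called higher and 1 lower, beside 14.0% and 11.8% of all active genes. Tnfrsf13c, Tnfrsf17 and the 3 receptors Tnfrsf8, Tnfrsf10b and Tnfrsf11b were at or under 3 TPM in each library.

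**Figure D5:**
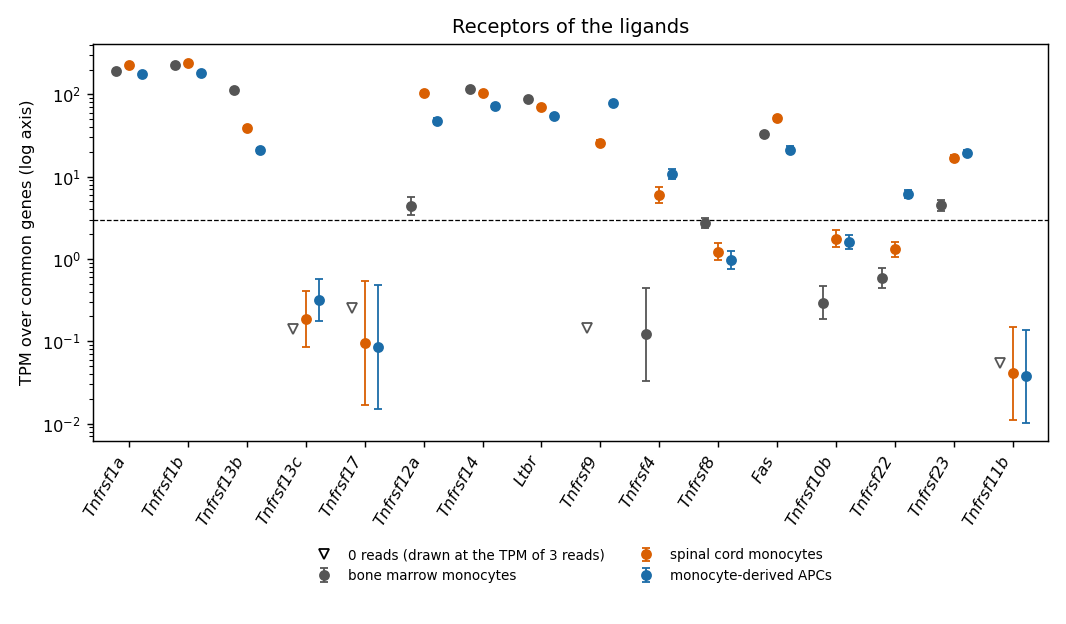
TPM over the common genes (log axis) of 16 receptors of the ligands in the 3 libraries, with 95% Wilson intervals. Tnfrsf12a and Tnfrsf9 are low or at 0 reads in bone marrow monocytes (open triangles at the TPM of 3 reads) and at 104 and 25.8 TPM in spinal cord monocytes, while Tnfrsf13b goes from 112 to 39.1 TPM.

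Processing of the ligands was represented by 9 genes, of which 3 were called higher in spinal cord than in bone marrow monocytes and 0 lower, with a median log2 ratio of 0.74. Of all active genes, 13.8% were called higher and 10.7% lower. Adam17, the protease that sheds TNF, had 68.9, 99.7 and 89.0 TPM in the 3 libraries and was not called (log2 ratio 0.74 between the monocytes). Furin, which cuts APRIL, BAFF and TWEAK, was called higher with 66.6, 192 and 146 TPM. Rhbdf2 (iRhom2), which brings ADAM17 to the cell surface, was called higher with 29.6, 90.1 and 48.4 TPM. Timp3, an inhibitor of ADAM17, was called higher with 0.430, 3.80 and 2.67 TPM. Between APCs and spinal cord monocytes 0 of the 9 were called, beside 1.93% of all active genes higher and 1.70% lower. Between APCs and bone marrow monocytes Furin was called higher and Frmd8, which stabilizes the iRhom and ADAM17 complex, lower at a log2 ratio of -1.30. The shares of all active genes there were 14.0% higher and 11.8% lower.

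Of 20 genes that relay or restrain the receptor signal, 6 were called higher in spinal cord than in bone marrow monocytes and 0 lower, while their median log2 ratio was 0.34. The shares of all active genes were 13.8% higher and 10.7% lower. Traf1, an adaptor, had 0.683, 53.4 and 37.1 TPM and a log2 ratio of 6.79. Tnfaip3 (A20), which restrains NF-kB, had 13.2, 555 and 415 TPM and a log2 ratio of 5.86. Cflar, an inhibitor of death receptor signalling, and Tnip1, a partner of A20, had log2 ratios of 2.15 and 2.06. Between APCs and spinal cord monocytes 0 of the 20 were called, beside 1.93% of all active genes higher and 1.70% lower. With reads divided by effective length Birc3 and Cflar were called lower there, beside 3.29% of all active genes. Between APCs and bone marrow monocytes 6 were called higher and 0 lower, beside 14.0% and 11.8% of all active genes.

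Of 8 RNA-binding proteins that act on Tnf mRNA, 3 were called higher in spinal cord than in bone marrow monocytes and 0 lower, with a median log2 ratio of 0.73. Of all active genes, 13.8% were called higher and 10.7% lower. Zfp36 (tristetraprolin), which speeds its decay, had 502, 1703 and 1623 TPM and a log2 ratio of 2.11 between the monocytes. Zc3h12a (regnase-1) had a log2 ratio of 3.87 and Zfp36l1 one of 2.79. Between APCs and spinal cord monocytes 0 of the 8 were called, beside 1.93% of all active genes higher and 1.70% lower. Between APCs and bone marrow monocytes 3 were called higher and Tia1, a translational repressor, lower at -1.27, beside 14.0% and 11.8% of all active genes. The gene lists were written with earlier results of the same libraries in view and are no independent evidence of a direction.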

How the data were processed

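RNA of 3 pooled populations was sequenced as 1 library each. The authors quantified paired-end reads with Salmon 0.14.1 (per the labels, with mm10) on GENCODE vM22 and pooled transcripts by gene. The estimated counts that the authors deposited carry no normalization. TPM, as deposited by the authors, is normalized for effective length and library size. Each monocyte library lists 54432 genes and the APC library 22242, for a reason not given in the sources used here, so TPM was rescaled over the 22238 common genes (factors 1.18 for bone marrow monocytes, 1.17 for those of the spinal cord and 1.00 for APCs). The common genes held 32115725, 26116604 and 28209335 estimated counts. Whether reads were counted by strand is not given in the sources used here.

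Estimated counts were rounded to whole reads. After the GFold definition used in the study, the log2 ratio of 2 libraries was the median of gamma posteriors of the reads, with 1 added and median-of-ratios scaling, with bounds at percentiles 1 and 99, and a call needed a bound beyond a 2-fold change and more than 3 TPM in 1 library. The cut of 3 TPM was set here, whereas the study gives a threshold of 2 for log2 TPM. The call was fitted over all common genes. It was tried on simulated counts with counting error only and changes well past 2-fold. That trial does not bear on the spread between libraries or on changes near 2-fold. A library with 0 reads was set to 3 reads for a bound, and the reads of the other library were taken as exact. Levels have 95% Wilson intervals. Coordinates are GENCODE M21 on GRCm38. All ligands of the superfamily were named, receptors above 3 TPM, and in the other lists genes called in any comparison, or the 4 with the largest ratios. Adam17, Birc3, the immediate-early genes and the markers named beside a result were chosen after their values were seen. The 3 nearest genes were sought for Tnf and Tnfsf13, which had the largest and the lowest ratio of spinal cord to bone marrow monocytes among the active ligands. The members and lists were chosen with earlier results of these data known. The tools were matplotlib 3.10.9, scipy 1.17.1, pandas 2.3.3, numpy 2.4.6 and Python 3.11.15, with R 4.3.3 and edgeR 4.0.16 for TMM factors only. Alternatives were other scalings, filters and pseudocounts, and an assumed spread between libraries.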

Additional observations from a re-analysis of the deposited data

How the results depend on the processing

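With 1 library per population, leaving out a library was not possible, and an assumed spread between libraries stood in for replicate error. No paired analysis was possible because each population has 1 library. With no TPM criterion, 6 ligands were called higher in spinal cord than in bone marrow monocytes (Tnfsf8, Tnfsf10 and Fasl added), 1 in APCs against spinal cord monocytes (Tnfsf4) and 7 in APCs against bone marrow monocytes, beside 11.8%, 1.73% and 12.9% of all 22238 genes called higher. With an assumed coefficient of variation of 0.4 added to each library, 2 ligands, Tnf and Tnfsf9, were called in APCs against bone marrow monocytes, and the same 2 in spinal cord against bone marrow monocytes, beside 7.11% and 6.25% of active genes called higher. With a variation of 0.2, Tnfsf12 lost its call in APCs against bone marrow monocytes. Tnfsf13b also lost its call between the monocytes with a variation of 0.2, with total reads and over all genes of the monocyte files, and Tnfsf14 gained one with a plain 2-fold change. Of 346 log2 ratios of single ligands under the alternatives, 297 stayed within the 98% interval of the reported value and 49 did not. Alternatives that changed only the TPM criterion, the assumed spread or the rule of the call left each ratio unchanged by construction. They are counted among the 297, which is therefore no measure of stability. The sign changed in 2, both with the summed reads of the Tnfsf12 and Tnfsf13 locus (Tnfsf12 between the monocytes and Tnfsf13 in APCs against bone marrow monocytes). The log2 ratio of Tnf between the monocytes ran from 4.95, with 1 added to TPM, to 5.38 over 13 settings. Over all active genes, scaling by total reads gave 1239 genes higher and 1394 lower in spinal cord than in bone marrow monocytes, against 1386 and 1073, and a variation of 0.4 gave 630 and 225. Between APCs and spinal cord monocytes, division by effective length gave 232 higher and 320 lower, against 188 and 165. The cause of these moves was not tested. Ligands at fewer than 50 reads, such as Fasl, are limited by depth.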
